A study of Homo sapiens with 12 samples.

Results

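The genes described here are 10 mouse genes of fibroblasts and their extracellular matrix, read in the host part of human breast tumour xenografts. They were taken by a list of Ensembl identifiers that sets no threshold on measured values, though the list was drawn up with earlier results of these data known. All 10 were among the 54146 mouse identifiers listed and passed the filter on low counts. They are the fibrillar collagen genes Col1a1 (ENSMUSG00000001506), Col1a2 (ENSMUSG00000029661) and Col3a1 (ENSMUSG00000026043), the matrix proteoglycan genes Dcn (ENSMUSG00000019929) and Lum (ENSMUSG00000036446), the adhesive and matricellular protein genes Fn1 (ENSMUSG00000026193), Postn (ENSMUSG00000027750) and Sparc (ENSMUSG00000018593), and the cell surface genes Pdgfra (ENSMUSG00000029231) and Fap (ENSMUSG00000000392). Their GRCm38 coordinates and sequences were not used here.

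Tumours were grown from the cell line MCFDCIS, a model of human breast ductal carcinoma in situ, placed under the skin of athymic nude mice, which lack mature T cells. Treatment began after 2 weeks of growth. There were 4 groups of 3 tumours: 2 weeks of daily palbociclib (50 mg per kg by oral gavage), 2 weeks of vehicle, and the same treatments each followed by recovery, for a time that the labels leave out. The first pair is called initial and the second recovery. Human tumour cells carry no mouse genes, so counts on mouse rows come from the host cells in and around the tumour, apart from human reads that could be assigned to a mouse row. The age of the mice is not given, and nothing says that the tumours of a group came from different animals, so p-values here measure only how these tumours spread, which may be technical.

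In a xenograft the stroma is supplied by the host. Fibroblasts secrete procollagen, and type I collagen is a trimer of alpha 1 chains, made from Col1a1, and an alpha 2 chain, made from Col1a2, while Col3a1 makes the homotrimeric type III collagen that is laid down with it in soft and newly formed tissue. Decorin and lumican bind these fibrils and limit their width, fibronectin, periostin and SPARC tie cells to the matrix or steer its assembly, PDGFRA is a receptor for platelet-derived growth factors on fibroblasts, and FAP is a surface protease of activated fibroblasts.

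Counts assigned to mouse genes ranged from 1391023 to 3483342 per library, which was 14.2% to 25.4% of all gene counts. Levels are given as CPM, counts per 1000000 counts on the mouse rows of a library. The lowest count of any member in any library was 185 and the highest 90147. Counting error was not set against the differences between tumours for each member. Libraries 2 and 3 of the vehicle initial group had 5.32% and 11.2% of their human counts on mitochondrial genes, against 0.674% to 2.64% in the other 10 libraries. They also had the lowest mouse counts, 1462284 and 1391023, and the highest shares of counts on rows that name no gene, 61.9% and 69.1%. Vehicle recovery library 2 had the lowest such share, 37.0%. Vehicle initial library 3 had the lowest level of the 12 libraries for 5 of the 10 members. Markers of other host cell types were not analysed here, because the tables used here name no mouse genes beyond these 10, and in bulk tumours fewer fibroblasts and less RNA per fibroblast cannot be told apart.

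Together the 10 genes held 8.46% ± 0.792 of mouse counts in palbociclib initial tumours and 7.23% ± 1.08 in vehicle initial tumours (SD, n = 3). After recovery they held 7.60% ± 0.0682 with palbociclib and 7.87% ± 0.365 with vehicle (SD, n = 3). The lowest single value was 6.04% in vehicle initial library 3 and the highest 9.30% in palbociclib initial library 2. The collagens Col1a1, Col1a2 and Col3a1 alone made up 67.4% to 77.9% of the members' counts.

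**Figure D1:**
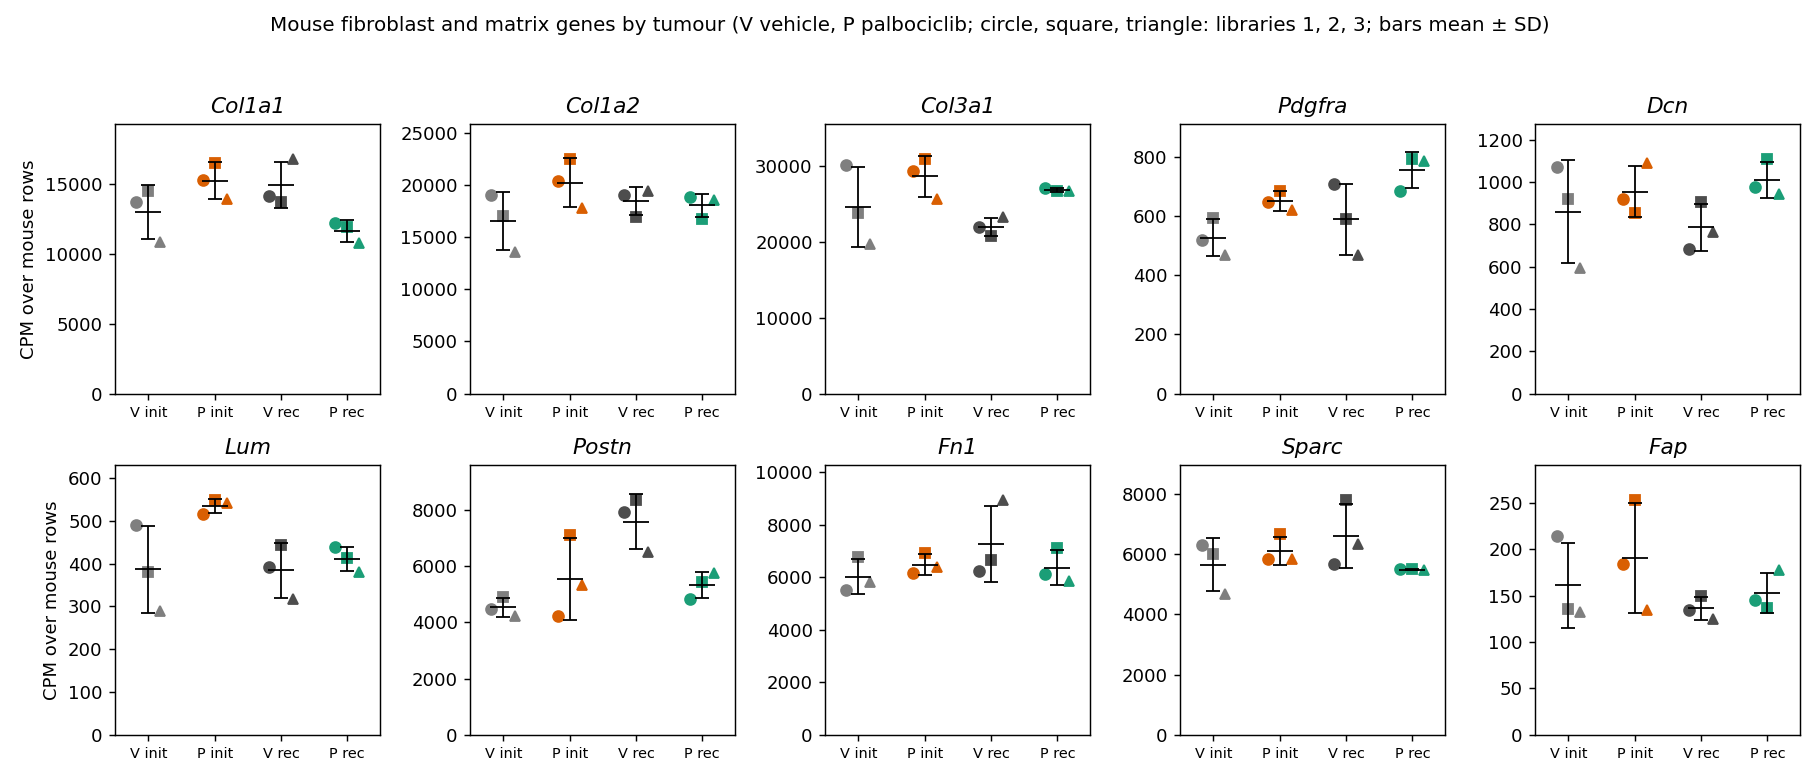
Level of each of the 10 mouse genes in the 12 tumours, in CPM of mouse counts (y axes start at 0), by group (x axis). Points are tumours, with circle, square and triangle for libraries 1, 2 and 3, and black bars are the mean ± SD of 3 tumours. Postn in the vehicle recovery group, at 6492 to 8346 CPM, lies above the other vehicle tumours, and Col1a1 in the palbociclib recovery group, at 10759 to 12167 CPM, lies below the vehicle recovery tumours.

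The first comparison asked whether the host matrix genes differed between palbociclib and vehicle tumours at the end of treatment. All 10 had positive log2 fold changes, from 0.10 for Fn1 to 0.46 for Lum, with a median of 0.23 beside -0.01 over the 13055 mouse genes tested. Positive values made up 48.8% of all mouse genes. None of the 10 passed the quasi-likelihood test of edgeR, adjusted by Benjamini-Hochberg over all mouse genes (0 of 13055 genes passed, a background of 0%), where a gene passes at an adjusted p under 0.05. At an unadjusted p under 0.05 there were 1 member, Lum, and 1024 mouse genes in all. DESeq2 called 40 mouse genes and no member.

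Lum, which encodes the keratan sulphate proteoglycan lumican, stood at 516, 548 and 541 CPM in the palbociclib initial tumours and at 491, 381 and 288 CPM in the vehicle initial tumours. The groups did not overlap, but vehicle library 1 lay close to the palbociclib tumours. The log2 fold change was 0.46 ± 0.18 (SE; 95% interval 0.07 to 0.85; edgeR adjusted p = 0.57), and it was 0.28 without vehicle initial library 3, 0.69 without vehicle initial library 1 and 0.10 without vehicle initial libraries 2 and 3.

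Pdgfra was at 649, 686 and 619 CPM with palbociclib and at 519, 592 and 469 CPM with vehicle. All 3 palbociclib tumours were above all 3 vehicle tumours, and the log2 fold change was 0.30 ± 0.16 (SE), with an edgeR adjusted p of 0.68. The value without vehicle initial libraries 2 and 3 was also 0.30. Lum and Pdgfra were the members whose groups did not overlap in this direction, as was the case for 5.02% of all mouse genes tested. In the other direction no member was free of overlap, against 6.03% of mouse genes.

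For the collagens the tumours of both groups were interleaved. Col1a1 was at 15230, 16510 and 13874 CPM with palbociclib and at 13686, 14451 and 10819 CPM with vehicle. Its log2 fold change was 0.22 ± 0.17 (SE; 95% interval -0.13 to 0.58; edgeR adjusted p = 0.81). Col1a2 and Col3a1 gave 0.28 ± 0.17 and 0.22 ± 0.17, with edgeR adjusted p = 0.73 and 0.84. Without vehicle initial library 3 the values of Col1a1, Col1a2 and Col3a1 were 0.096, 0.15 and 0.069, and without vehicle initial library 1 that of Col3a1 was 0.41.

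The other 5 members had log2 fold changes of 0.14 ± 0.20 for Dcn, 0.29 ± 0.19 for Postn, 0.10 ± 0.17 for Fn1, 0.11 ± 0.17 for Sparc and 0.23 ± 0.23 for Fap (edgeR adjusted p between 0.79 and 0.95). The palbociclib tumours spread widely for Postn, from 4228 to 7105 CPM, and for Fap, from 135 to 253 CPM. Without palbociclib initial library 2, the highest of its group for both, Postn was at 0.067 and Fap at -0.032. Fn1 ranged from 0.051 to 0.22 when 1 library was left out. The common sign of the 10 values rested in part on vehicle initial library 3: without it Dcn and Sparc were at -0.08 and -0.03 and the median of the 10 was 0.10. Without vehicle initial libraries 2 and 3, which leaves 1 vehicle initial tumour, Col3a1, Dcn, Sparc and Fap had negative values.

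**Figure D2:**
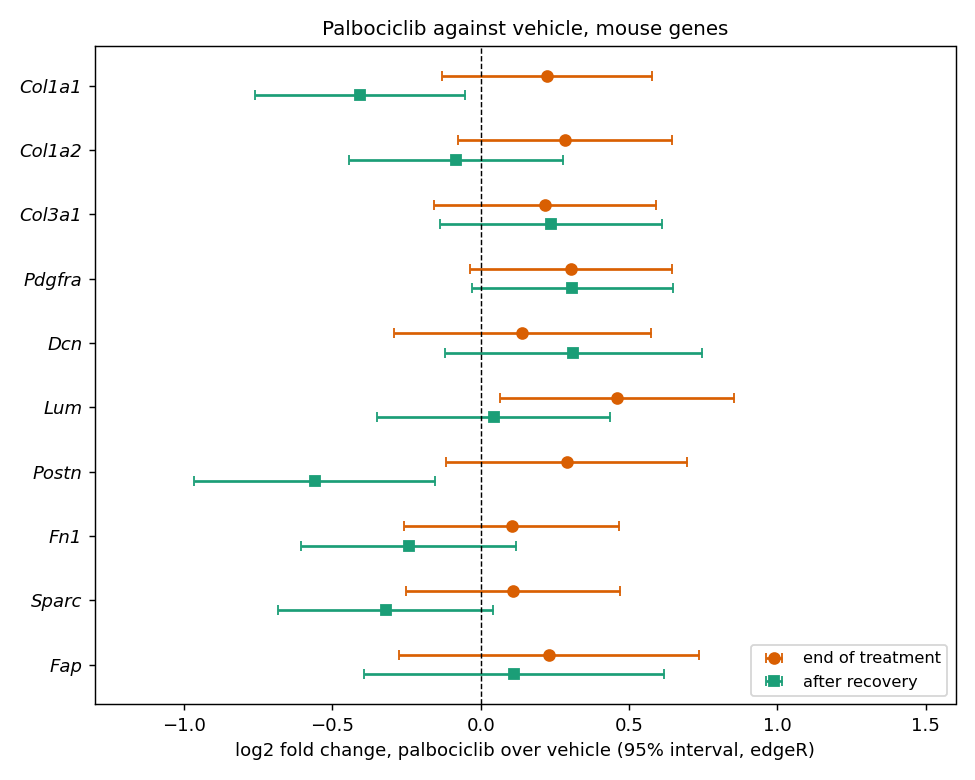
Log2 fold change of palbociclib over vehicle (x axis) for each of the 10 mouse genes (y axis), in initial (orange circles) and recovery tumours (green squares). Lines are 95% intervals from the edgeR fit and the dashed line is no difference; the intervals of Lum at the end of treatment and of Col1a1 and Postn after recovery do not reach 0, and no gene passed after adjustment.

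The second comparison asked what differed after the recovery period. The members then no longer shared a sign: 5 were higher and 5 lower in palbociclib recovery tumours, with a median log2 fold change of -0.02, where 49.1% of all mouse genes were above 0. The lowest values belonged to Postn and Col1a1 and the highest to Dcn and Pdgfra. No member passed (0 of 13055 mouse genes passed by edgeR, 0%), and 2 members, Postn and Col1a1, and 940 mouse genes had an unadjusted p under 0.05. DESeq2 called 37 mouse genes and no member.

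Postn, which encodes the matricellular protein periostin of collagen-rich and remodelling tissue, was at 4826, 5433 and 5755 CPM in the palbociclib recovery tumours. In the vehicle recovery tumours it was at 7935, 8346 and 6492 CPM, so all 3 lay above the palbociclib tumours. The log2 fold change was -0.56 ± 0.19 (SE; 95% interval -0.97 to -0.15; edgeR adjusted p = 0.51), and -0.47 without vehicle recovery library 2.

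Col1a1 was at 12167, 11925 and 10759 CPM in the palbociclib recovery tumours and at 14143, 13724 and 16755 CPM in the vehicle recovery tumours. Again the groups did not overlap, at a log2 fold change of -0.41 ± 0.17 (SE; 95% interval -0.76 to -0.05; edgeR adjusted p = 0.64). Sparc, whose product binds collagen, was the third member with all palbociclib tumours below all vehicle tumours. Its palbociclib recovery values were close together, at 5492, 5489 and 5453 CPM, and those of vehicle recovery tumours were 5678, 7777 and 6339 CPM. For Sparc the log2 fold change was -0.32 ± 0.17 (SE), at an edgeR adjusted p of 0.74, and it was -0.17 without vehicle recovery library 2, which had the highest Sparc level of the 12 libraries.

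Col3a1 had a value of the opposite sign to Col1a1. It was at 27117, 26703 and 26796 CPM with palbociclib and at 21957, 20821 and 23267 CPM with vehicle, with no overlap and a log2 fold change of 0.24 ± 0.17 (SE; 95% interval -0.14 to 0.61; edgeR adjusted p = 0.84). Col1a2 overlapped, at -0.08 ± 0.17. In all, 3 members had palbociclib tumours below every vehicle tumour, against 7.51% of mouse genes tested, and 1 had them above, against 6.82%.

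Among the remaining members Pdgfra was at 0.31 ± 0.16, Dcn at 0.31 ± 0.20, Lum at 0.04 ± 0.18, Fn1 at -0.24 ± 0.17 and Fap at 0.11 ± 0.23 (edgeR adjusted p between 0.72 and 0.99), and on the TMM-scaled values, which overlap is read from throughout, none of them was free of overlap.

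Dcn depended on that scaling: in plain CPM it was at 977, 1109 and 946 with palbociclib recovery and at 685, 907 and 765 with vehicle recovery, with no overlap. After TMM scaling the lowest palbociclib tumour, at 914 CPM, lay below the highest vehicle tumour, at 931 CPM. TMM, the trimmed mean of M-values, rescales each library by the typical ratio of its genes. Fn1 was at 6108, 7114 and 5858 CPM with palbociclib recovery and at 6235, 6666 and 8924 CPM with vehicle recovery, and its log2 fold change was -0.075 without vehicle recovery library 3. Fap, the lowest in counts of the 10, was at 145, 136 and 178 CPM with palbociclib recovery and at 134, 150 and 125 CPM with vehicle recovery. Pdgfra reached 792 and 787 CPM in palbociclib recovery libraries 2 and 3, above every other tumour, while palbociclib recovery library 1, at 685 CPM, lay below vehicle recovery library 1 at 707 CPM.

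These values are relative to the mouse total, and the mouse total had a higher mean share of counts in the palbociclib groups, without passing a test. Mouse genes took 20.7% ± 1.44 of gene counts in palbociclib recovery and 16.3% ± 1.93 in vehicle recovery tumours (SD, n = 3; exact two-sided permutation p = 0.1, the smallest that 3 against 3 can give). At the end of treatment the shares were 20.0% ± 4.69 and 16.4% ± 0.963 (SD, n = 3; exact permutation p = 0.2). The recovery difference, 4.34 percentage points, depended on the total used, and the initial one, 3.53 points, on 1 library. Leaving out 1 library at a time gave 3.30 to 5.20 points for recovery. With the rows that name no gene in the total, the recovery difference was 1.26 points (exact permutation p = 0.4) and the initial one 2.94 points (exact permutation p = 0.1). Without palbociclib initial library 3, where the mouse share was 25.4%, the initial difference was 0.828 points. With human plus mouse counts as library size, the median log2 fold change of all mouse genes moved to 0.28 in the initial and 0.39 in the recovery comparison. The members' medians on that scale were 0.49 and 0.37, and no member passed. After recovery Pdgfra stood at 0.73, Dcn at 0.70 and Col3a1 at 0.62 on that scale, while Col1a1 was at -0.03 and Postn at -0.15. Col1a2, Fn1 and Sparc changed sign there, to 0.31, 0.13 and 0.06. All 5 of these latter values lay below the median of all mouse genes on that scale.

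The difference between the palbociclib effects at the recovery and initial stages was tested as an interaction in the same model. It was positive for 3 of the 10 members, against 51.5% of all mouse genes, and negative for 7, with a median of -0.36 beside 0.01 over all mouse genes. Postn had the lowest value, -0.85 ± 0.27 (SE; 95% interval -1.42 to -0.28; edgeR adjusted p = 0.83), followed by Col1a1 at -0.63 ± 0.23 (edgeR adjusted p = 0.88). These 2 members had an unadjusted p under 0.05, as did 696 mouse genes in all, and 0 of 13055 passed by edgeR (0%). With no filter on low counts Postn passed (edgeR adjusted p = 0.042), as did 73 of 29888 mouse genes in all. DESeq2 called 4 mouse genes and no member. Pdgfra and Col3a1 were near 0, at 0.00 ± 0.22 and 0.02 ± 0.25, and Dcn was at 0.17 ± 0.29. The intervals of Pdgfra, -0.48 to 0.48, and of Col3a1, -0.51 to 0.55, leave room for a difference in either direction. The median of the 10 members, -0.36, depended on the vehicle initial libraries. It was -0.23 without library 3 (4 positive), -0.45 without library 1 (0 positive) and -0.10 without libraries 2 and 3 (4 positive).

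The change between stages within each treatment used the same 4 groups, so these values share tumours with those above. In vehicle tumours Postn went from 4491, 4912 and 4234 CPM in the initial tumours to 7935, 8346 and 6492 CPM in the recovery tumours. All recovery tumours were above all initial tumours, at a log2 fold change of 0.76 ± 0.19 (SE; 95% interval 0.35 to 1.17), the highest of the 10. Postn ranked 44 by p among 13055 mouse genes, with an unadjusted edgeR p of 0.0013, and did not pass (edgeR adjusted p = 0.34). By DESeq2 it did pass (adjusted p = 0.031). With no filter on low counts it also passed by edgeR (adjusted p = 0.0004), as did 211 of 29888 mouse genes in all. Without 1 vehicle library at a time the log2 fold change lay between 0.67 and 0.87 and it did not pass (edgeR adjusted p of 0.17 or more).

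Of the 10 members 7 had positive values, against 48.8% of all mouse genes. No other member was free of overlap between the vehicle stages, where 6.29% of mouse genes tested were higher and 5.21% lower in this sense. By edgeR 0 of 13055 genes passed (0%), 1267 had an unadjusted p under 0.05 and DESeq2 called 15. Fn1 was at 0.29 ± 0.17, Sparc at 0.24 ± 0.17, Col1a1 at 0.21 ± 0.17, Pdgfra at 0.18 ± 0.16, Col1a2 at 0.17 ± 0.17 and Lum at 0.01 ± 0.18. Col3a1, Dcn and Fap were at -0.14 ± 0.17, -0.12 ± 0.20 and -0.23 ± 0.24 (edgeR adjusted p between 0.58 and 0.99 for these 9 genes). Leaving out 1 library gave 0.13 to 0.40 for Fn1, 0.095 to 0.35 for Sparc, 0.083 to 0.31 for Col1a1, 0.034 to 0.30 for Col1a2 and 0.036 to 0.33 for Pdgfra. Vehicle initial library 1 had the highest Col1a2, Col3a1, Dcn, Lum, Sparc and Fap levels of its group. Without it all 10 values were positive, and without vehicle initial libraries 2 and 3 they were split 5 and 5.

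In palbociclib tumours Postn was at 4228, 7105 and 5330 CPM at the end of treatment and at 4826, 5433 and 5755 CPM after recovery, a log2 fold change of -0.09 ± 0.19. The difference between the arms is the interaction given above, which did not pass. In this arm 2 of the 10 members had positive values, against 49.5% of all mouse genes, and the median was -0.15.

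Col1a1 had the lowest value in that arm, -0.42 ± 0.17 (SE; 95% interval -0.77 to -0.06; edgeR adjusted p = 0.79), with all recovery tumours below all initial tumours. Lum was also lower with no overlap, at 438, 413 and 382 CPM after recovery beside 516 to 548 CPM before, a log2 fold change of -0.41 ± 0.18 (edgeR adjusted p = 0.86). Sparc, at 5832 CPM or more before and 5492 CPM or less after, was at -0.19 ± 0.17. These 3 members were lower with no overlap, against 7.54% of mouse genes tested, and 0 were higher, against 7.41%. In this comparison 3 of 13055 mouse genes passed by edgeR (0.023%), none of them a member, and DESeq2 called 17 and no member. Col1a2, Col3a1, Fn1 and Fap were at -0.20 ± 0.17, -0.12 ± 0.17, -0.06 ± 0.17 and -0.35 ± 0.23, and Pdgfra and Dcn at 0.18 ± 0.16 and 0.06 ± 0.20.

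**Figure D3:**
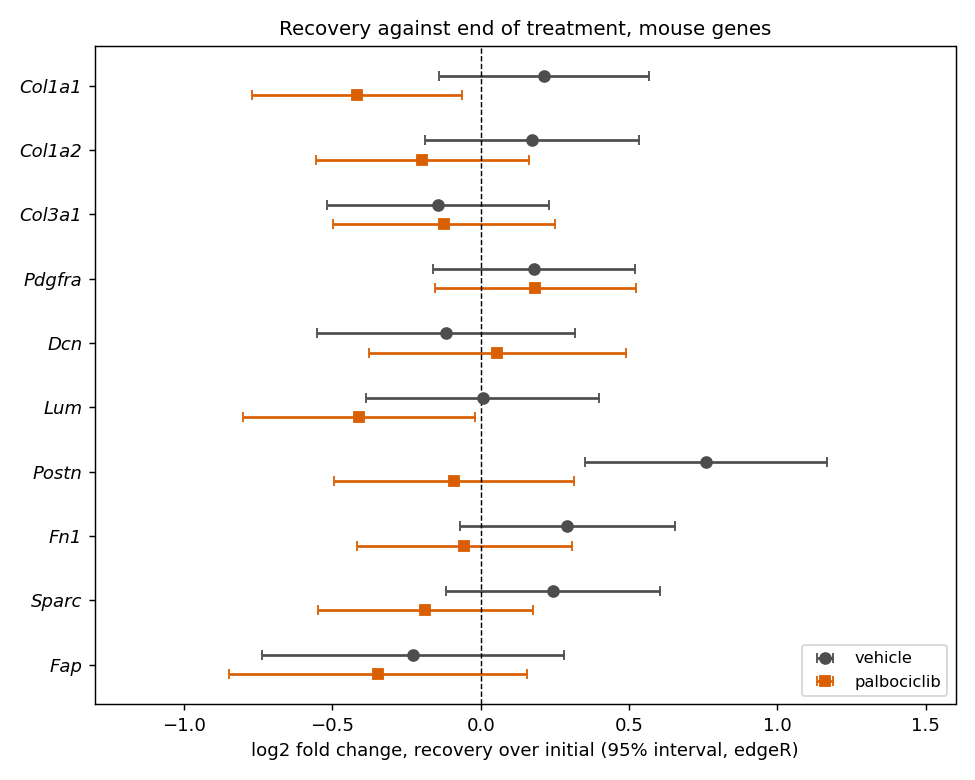
Log2 fold change of recovery over initial tumours (x axis) for each of the 10 mouse genes (y axis), in vehicle (grey circles) and palbociclib tumours (orange squares), with 95% intervals from the edgeR fit and a dashed line at no difference. Postn in vehicle tumours, at 0.76, is the highest value, and Col1a1 lies at 0.21 in vehicle and -0.42 in palbociclib tumours.

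Ratios of 2 members within a library do not depend on how libraries are scaled. The ratio of Col3a1 to Col1a1 counts was 2.23, 2.24 and 2.49 in the palbociclib recovery tumours and 1.55, 1.52 and 1.39 in the vehicle recovery tumours. At the end of treatment it was 1.93, 1.87 and 1.85 with palbociclib and 2.21, 1.65 and 1.83 with vehicle. The palbociclib recovery tumours were thus the highest of the 12 and the vehicle recovery tumours the lowest, with both initial groups between them. The ratio of Col1a2 to Col1a1, the genes whose chains join in the same trimer, followed in the same order after recovery, at 1.55, 1.40 and 1.72 with palbociclib and 1.34, 1.23 and 1.16 with vehicle.

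The ratio of Dcn to Sparc counts was 0.178, 0.202 and 0.174 in palbociclib recovery and 0.121, 0.117 and 0.121 in vehicle recovery tumours. These ratios were picked after their values were seen and were not tested. Of the 45 pairs of members, 20 had ratios that did not overlap between the recovery groups, where the share over all pairs of the 1088 mouse genes at least as high as the lowest member was 21.5%. At the end of treatment it was 6 of 45 pairs, against 12.8%. Between stages it was 15 of 45 pairs in palbociclib tumours, against 22.9%, and 11 of 45 in vehicle tumours, against 14.4%. Pairs share genes and are not independent of each other.

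**Figure D4:**
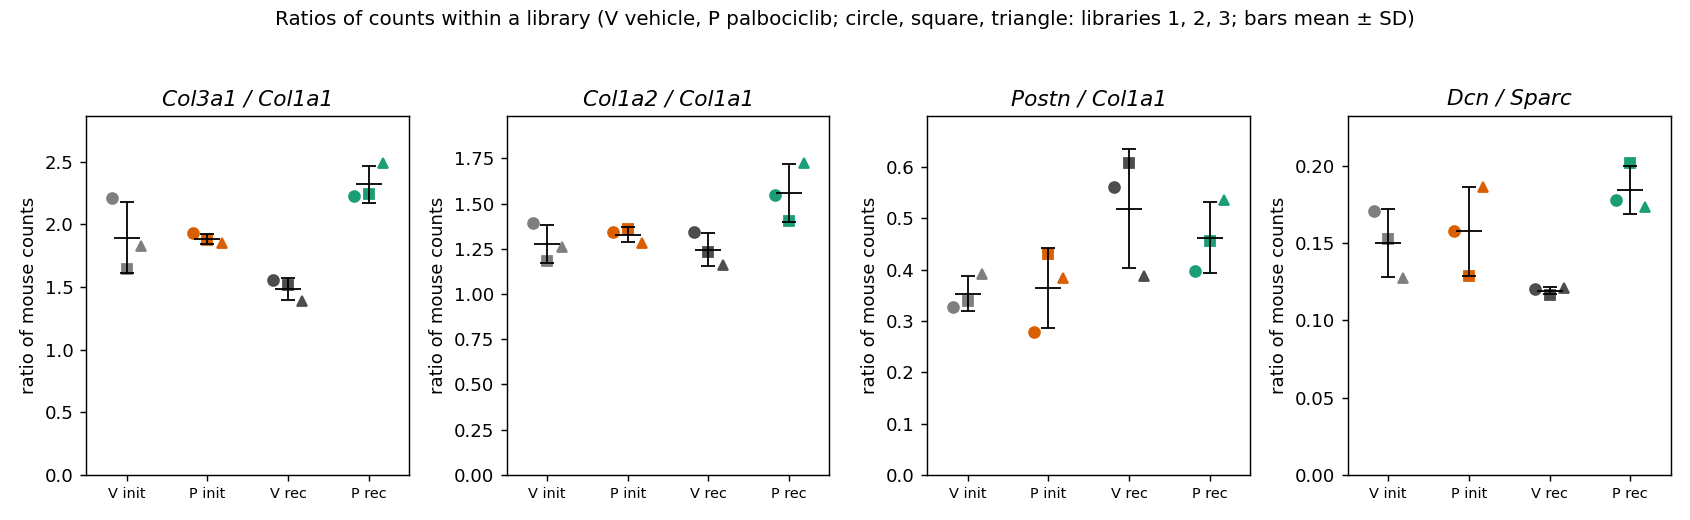
Ratio of mouse counts of 2 genes within each library (y axes start at 0) by group (x axis), for Col3a1 to Col1a1, Col1a2 to Col1a1, Postn to Col1a1 and Dcn to Sparc. Points are tumours, with circle, square and triangle for libraries 1, 2 and 3, and black bars are the mean ± SD of 3 tumours; for Col3a1 to Col1a1 the recovery groups lie apart, at 2.23 or more with palbociclib and 1.55 or less with vehicle.

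The members moved together only in part across the tumours. Of the 45 pairs, 42 correlated positively after each group's mean was taken off, and 36 did so over the 12 libraries as they stood. The share of positive pairs over all mouse genes was not worked out, so these counts show nothing particular to the members. Over the 12 libraries the 45 pairwise Pearson correlations of TMM-scaled log2 CPM had a median of 0.36. They ranged from -0.24, for Fn1 and Fap, to 0.76, for Col3a1 and Fap. Col1a1 and Col1a2 had r = 0.72, Col1a2 and Col3a1 r = 0.74, but Col1a1 and Col3a1 only r = 0.32. After each group's mean was taken off, Col1a1 and Col3a1 had r = 0.77 and Col1a2 and Col3a1 r = 0.93. These correlations describe the same 12 libraries, which also share depth and library quality. They were not repeated without vehicle initial library 3, where the mean level of the members was lowest. Dcn and Lum, the proteoglycan pair, had r = 0.69. Postn had r = 0.65 with Sparc, and 0.47 without vehicle recovery library 2. With Col3a1 it had r = -0.20, which was -0.0029 without that library and 0.18 after the group means were taken off.

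The files also count the human gene of the same name, which tells how the counts of each gene divided between host and tumour rows. The mouse row held 99.8% to 99.9% of the mouse plus human counts for Col1a1, and its lowest share was 99.2% for Col1a2 and Lum, 96.4% for Col3a1, 96.3% for Dcn and 93.99% for Pdgfra. Human LUM had between 0 and 11 counts. In the 4 libraries at 0 the depth allows a level of up to 0.262 to 0.454 CPM of human counts, from 3 counts. Human COL1A1 stood between 3.13 and 7.18 CPM of human counts, beside 10759 to 16755 CPM of mouse counts for mouse Col1a1.

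For Fn1, Postn, Sparc and Fap a larger part of the counts lay on the human row. The mouse row held 76.8% to 91.7% of Fap counts, 62.8% to 89.8% of Postn counts and 54.7% to 76.4% of Sparc counts. Most fibronectin counts lay on the human row: the mouse row held 4.75% (95% Wilson interval 4.67% to 4.82%) in vehicle recovery library 2, the lowest, and 22.7% (22.5% to 23.0%) in palbociclib initial library 3, the highest. These intervals cover counting error only. The lowest mouse shares of Postn and Sparc, 62.8% and 54.7%, also belonged to vehicle recovery library 2.

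**Figure D5:**
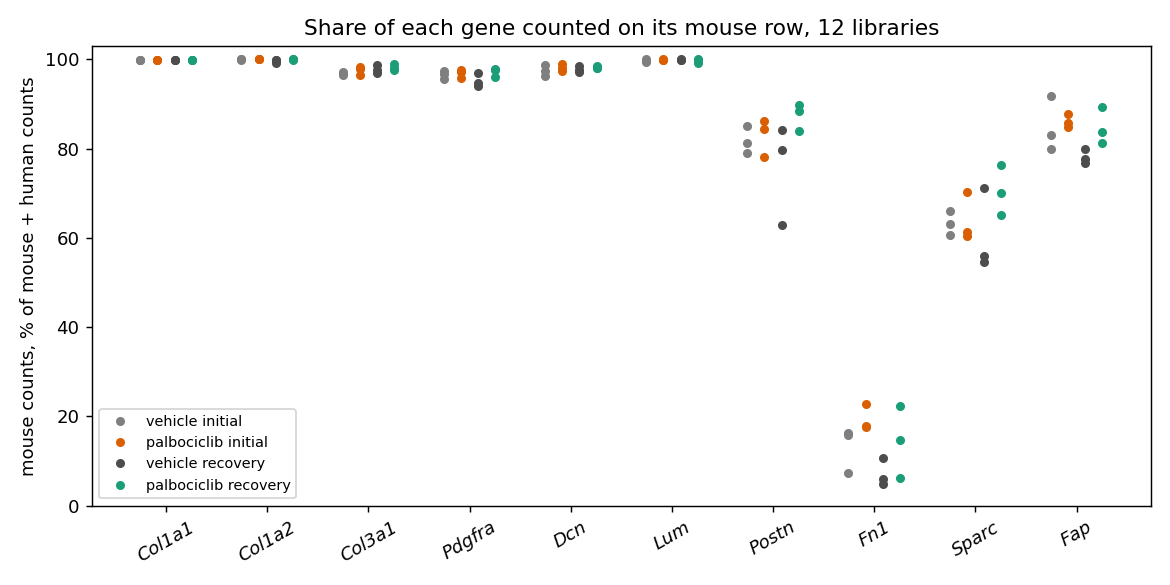
Counts on the mouse row as a percentage of mouse plus human counts (y axis, from 0) for each of the 10 genes (x axis), with 1 point per library coloured by group. Fn1 lies between 4.75% and 22.7%, Sparc, Postn and Fap between 54.7% and 91.7%, and the other 6 genes from 93.99% upward.

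The human counterparts gave wider spreads than the mouse genes, and none of the 9 that could be tested passed in either comparison of palbociclib with vehicle. At the end of treatment 343 of 18628 human genes passed by edgeR (1.84%) but no counterpart did, with values from -0.52 ± 0.53 for FN1 to 0.46 ± 0.31 for FAP. After recovery 1 human gene passed (0.00537%), while DESeq2 called 19. DESeq2 called no counterpart in either comparison and gave COL1A2 no adjusted p. Human POSTN, on chromosome 13 from 37562583 to 37598844 (GRCh38), was then at 217, 197 and 177 CPM of human counts with palbociclib and at 335, 991 and 268 CPM with vehicle. Its log2 fold change, -1.58 ± 0.45 (SE), had an edgeR adjusted p of 0.57 and became -0.61 without vehicle recovery library 2.

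Human SPARC, on chromosome 5 from 151661096 to 151687165, was at 554, 466 and 794 CPM with palbociclib recovery and at 744, 1292 and 563 CPM with vehicle recovery, and it overlapped between the groups. Its log2 fold change was -0.63 ± 0.32 (edgeR adjusted p = 0.58), and -0.10 without vehicle recovery library 2. Human FN1, on chromosome 2 from 215360440 to 215436172, was at 8264, 6859 and 24086 CPM with palbociclib recovery and at 16147, 26838 and 16310 CPM with vehicle recovery. Human COL1A2 stood at 28.0 CPM in vehicle recovery library 2 and at 2.21 CPM or less in the other 11 libraries. Its log2 fold change of -3.52 ± 1.09 became -0.92 without that library. With no filter on low counts, human POSTN, COL1A2, SPARC and FN1 passed after recovery (edgeR adjusted p = 4.6e-21, 4.4e-20, 0.0036 and 0.0024). In that setting 794 of 38457 human genes passed, and the SE of COL1A2 was 0.35 beside 1.09 with the filter. The sources used here do not say how reads that match both genomes were assigned, and the part of such reads in the mouse values of Postn, Sparc and Fn1 was not tested.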

How the data were processed

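RNA was sequenced from 12 xenograft tumours. The authors deposited 1 table of unnormalized read counts for each tumour, listing Ensembl genes of both species. Per the submitters' processing notes, CASAVA 1.8, cutadapt, STAR and edgeR were named, with the builds GRCh38 and GRCm38 and no role for each; the counting program, its strand setting and the annotation release are not stated there. The 4 rows that name no gene held 37.0% to 69.1% of counts and were left out, and 713 repeated rows with identical counts were removed.

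Mouse and human rows were fitted separately in R 4.3.3 with edgeR 4.0.16: the species total as library size, TMM scaling (mouse factors 0.974 to 1.04), filterByExpr defaults, which kept 13055 mouse and 18628 human genes, and 1 robust quasi-likelihood model of 12 libraries with 4 group means. Standard errors and 95% intervals were derived from each F statistic. The fit was run on simulated mouse counts, where the planted changes were larger than those of the members in the fit of 12 libraries. That run does not speak to changes of the members' size. Printed levels are plain CPM. Overlap between groups, correlations and the mean of the members were taken from TMM-scaled CPM. DESeq2 1.42.0, other scalings and filters, a covariate and left-out libraries were alternatives. Replicates of a group were compared for counting noise and exceeded it (chi-square per degree of freedom 4.31 to 12.3). Named genes were all 10 members, their human counterparts by symbol in GENCODE 29, and the 2 mouse identifiers most like them. The members and lists were chosen with earlier results of these data known. Lists of other host cell types were not analysed here, since no table used here pairs mouse identifiers with names; the 10 symbols came with the list of members.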

Additional observations from a re-analysis of the deposited data

How the results depend on the processing

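No paired analysis was possible because the labels number no replicates; the library numbers used here follow accession order and only name a tumour. Each alternative named under processing was run, and for the changes below the cause was not tested unless said. Over the 50 mouse results for single genes, 721 alternative values kept direction and side of the threshold, 46 changed sign and 3 came to pass: Postn between vehicle stages by DESeq2 and with no low-count filter, and the Postn difference with no filter. Over the 18 human results, 238 were kept, 17 changed sign and 4 came to pass.

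The counts of mouse genes called moved as follows. DESeq2 called 40 at the end of treatment, 37 after recovery, 4 for the difference, 17 between palbociclib stages and 15 between vehicle stages. With no low-count filter edgeR called 288, 159, 73, 164 and 211. With human plus mouse total as library size it called 41 after recovery and 1 at the end of treatment. For recovery it called 1 with mouse share as covariate and 15 with only the groups compared, and between palbociclib stages 9 with only the groups compared. Without vehicle initial libraries 2 and 3 it called 17 after recovery, 1 for the difference, 1 between palbociclib stages and 34 between vehicle stages. Leaving out 1 replicate gave 0 to 62 at the end of treatment (62 without vehicle initial replicate 1), 0 to 5 after recovery, 0 to 1 for the difference, 0 to 3 between palbociclib stages and 0 to 16 between vehicle stages.

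The 343 human genes called at the end of treatment became 147 with mouse share as covariate, 753 with no filter, 689 with only the groups compared and 95 without vehicle initial libraries 2 and 3, and 160 to 748 without 1 replicate. After recovery the 1 human gene became 19 by DESeq2, 794 with no filter, 0 with a minimum count of 50, with the covariate, with only the groups compared and without vehicle initial libraries 2 and 3, and 0 to 1 without 1 replicate.

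These log2 fold changes changed sign. With human plus mouse total as library size, Col1a2, Fn1 and Sparc after recovery were at 0.31, 0.13 and 0.063, Fap in the difference at 0.049, Fn1 and Postn between palbociclib stages at 0.027 and 0.0015, and Lum between vehicle stages at -0.023. With mouse share as covariate, Col1a2 after recovery was at 0.059 and human DCN at the end of treatment at -0.10. Lum between vehicle stages was at -0.0082 with a minimum count of 50, -0.010 without TMM scaling and -0.0030 with only the groups compared. Without vehicle initial libraries 2 and 3, Col3a1, Dcn, Fap and Sparc at the end of treatment were at -0.10, -0.19, -0.20 and -0.063, Col1a2 and Lum between vehicle stages at -0.041 and -0.34, Fap in the difference at 0.31, and human COL1A1, COL1A2, COL3A1 and FN1 at the end of treatment at 0.16, 0.084, -0.37 and 0.20.

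Leaving out 1 replicate gave these ranges where the sign changed. At the end of treatment: Dcn -0.079 to 0.35, Fap -0.032 to 0.52, Sparc -0.026 to 0.21, human COL1A2 -0.67 to 0.14, COL3A1 -0.11 to 0.33, DCN -0.22 to 0.19 and FN1 -0.78 to 0.078. After recovery: Lum -0.081 to 0.18, human FAP -0.41 to 0.073 and PDGFRA -0.27 to 0.12. In the difference: Col3a1 -0.17 to 0.17, Dcn -0.036 to 0.39, Fap -0.40 to 0.15 and Pdgfra -0.14 to 0.15. Between palbociclib stages: Dcn -0.032 to 0.16, Fn1 -0.16 to 0.012 and Postn -0.25 to 0.14. Between vehicle stages: Col3a1 -0.29 to 0.052, Dcn -0.33 to 0.095, Fap -0.36 to 0.064 and Lum -0.18 to 0.24. Further values kept their sign but moved by over 1.5 times. Human ones included COL1A1 -0.63 to -0.19 and FAP 0.24 to 0.68 at the end of treatment. After recovery they included COL3A1 0.098 to 0.56 and FN1 -1.54 to -0.28. Mouse ones included the following. After recovery: Col1a2 -0.13 to -0.047, Pdgfra 0.16 to 0.45, Fap 0.0021 to 0.20, Fn1 -0.35 to -0.075 and Sparc -0.42 to -0.17. In the difference: Col1a2 -0.50 to -0.22, Fn1 -0.46 to -0.18, Lum -0.65 to -0.23 and Sparc -0.53 to -0.28. Between palbociclib stages: Col1a2 -0.28 to -0.11, Col3a1 -0.20 to -0.057, Sparc -0.22 to -0.11 and Fap -0.55 to -0.081. The edgeR intervals rest on 1 spread for each gene, shared by the 4 groups, and not on the 3 tumours of a group alone. How much of their width came from counting error was not tested.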

Other observations

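By a fixed rule, 2 mouse genes were found whose TMM-scaled log2 CPM most resembled the mean of the 10 members over the 12 libraries. They were ENSMUSG00000054836, with Pearson r = 0.95 and a mean of 4.88 TMM-scaled CPM, and ENSMUSG00000020241, with r = 0.95 and a mean of 1981. These correlations are a description, since the genes were picked for their size, and the tables used here pair neither identifier with a name. The mean centred TMM-scaled log2 CPM of the 10 members was lowest in vehicle initial library 3, at -0.42. It was highest in palbociclib initial library 2, at 0.28, and the other 10 libraries lay between -0.05 and 0.10.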
